A study of Mus musculus with 12 samples.

Results

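The 10 genes examined here serve iron handling and metal buffering in macrophages. They were taken by name from the deposited tables, and each name matched a row: Slc40a1, Fth1, Ftl1, Tfrc, Slc11a1, Slc11a2, Ireb2, Mt1, Mt2 and Slc30a1. The tables hold 54532 genes in all. The cells were macrophages grown from the bone marrow of C57BL/6J mice, wild-type and aged 2 to 3 months, and differentiated in 15% serum with the growth factor CSF-1, first at 12 ng/ml and then for 48 h at 120 ng/ml. They were plated on uncoated dishes or on dishes coated with 10 µg/ml of fibronectin, the matrix ligand of integrin α5β1. Dishes of either kind then received an anti-ITGA5 neutralizing antibody, which blocks the integrin α5 chain, or control IgG, each at 10 µg/ml over 24 h. Crossing antibody and coating gave 4 groups of 3 libraries, which are called IgG or anti-ITGA5, with or without fibronectin. The study asked what integrin α5 does in macrophages, and the comparisons below ask whether its neutralization or the coating changed the levels of these transcripts. The study describes the repeats of its bone marrow macrophage experiment as biologically independent, and neither it nor the labels say which mice or cultures the 3 libraries of a group came from. The p-values rest on the spread between these libraries.

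Macrophages clear aged red cells and recycle their iron. Ferritin, a hollow shell of heavy and light chains, stores iron in the cytosol. Ferroportin exports it, the transferrin receptor takes it up with transferrin, and transporters of the NRAMP family move it out of phagosomes and endosomes. Iron regulatory proteins bind a hairpin called the iron responsive element in several of these mRNAs when cellular iron is low, which blocks translation of ferritin and ferroportin mRNA and stabilises transferrin receptor mRNA. Metallothioneins are small cysteine-rich proteins that bind zinc and copper, and the metal-sensing factor MTF-1 induces them together with the zinc exporter ZnT1 through short metal response elements.

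The hairpin sequences are shown because an mRNA that holds one can be governed by iron at the mRNA itself, a layer that the measured transcript levels of ferritin and ferroportin do not report. A search of protein-coding transcripts of the GENCODE M21 annotation (GRCm38) looked for an unpaired C, 5 stem bases, the loop CAGTGN and 5 bases that pair with the stem, G with T pairs allowed. Of 21901 protein-coding genes, 294 (1.34%) held such a stretch, and 4 of the members did: Fth1, Ftl1 and Slc40a1 once each in the 5′ UTR, and Tfrc 4 times in the 3′ UTR. The loop is in capitals, and sequences read 5′ to 3′ along the transcript.
Fth1, chr19:9982732-9982760, plus strand: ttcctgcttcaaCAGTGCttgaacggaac
Ftl1, chr7:45459779-45459807, minus strand: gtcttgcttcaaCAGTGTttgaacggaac
Slc40a1, chr1:45925465-45925493, minus strand: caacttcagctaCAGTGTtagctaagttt
Tfrc, chr16:32631219-32631247, plus strand: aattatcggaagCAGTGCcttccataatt
Tfrc, chr16:32631598-32631626, plus strand: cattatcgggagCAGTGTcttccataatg
Tfrc, chr16:32631663-32631691, plus strand: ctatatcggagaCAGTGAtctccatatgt
Tfrc, chr16:32631710-32631738, plus strand: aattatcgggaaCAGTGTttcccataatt
The other 6 members, Slc11a1, Slc11a2, Ireb2, Mt1, Mt2 and Slc30a1, held no stretch of this form. That says only that these letters were not found, and not that iron does not act on these mRNAs. This search allows 1 form of the hairpin and reads no variant of it.

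For the metal-responsive pair, bases upstream of the transcript start are shown because Mt1 and Slc30a1 are both known targets of MTF-1 and can be compared below. The RefSeq windows (GRCm38.p6) run from 250 bases before to 50 bases after each start, and 8 of the 10 members matched one. The metal response cores TGCACNC and TGCGCNC were searched on both strands. At least 1 core was present in 25.7% of 32851 windows. The Mt1 window held 3 cores, and 1.97% of windows held 3 or more. The Slc30a1 window held 2, and 7.11% of windows held 2 or more. Of the other members, Mt2 held 4 (0.517% of windows held 4 or more), 1 of the 2 windows of Tfrc held 2 that overlap each other, and the windows of Fth1, Ftl1, Slc11a1 and Ireb2 held none. Cores are in capitals in the stretch that ends before the annotated gene, and those not marked lie past its end.
Mt1, chr8:94178839-94179081, plus strand: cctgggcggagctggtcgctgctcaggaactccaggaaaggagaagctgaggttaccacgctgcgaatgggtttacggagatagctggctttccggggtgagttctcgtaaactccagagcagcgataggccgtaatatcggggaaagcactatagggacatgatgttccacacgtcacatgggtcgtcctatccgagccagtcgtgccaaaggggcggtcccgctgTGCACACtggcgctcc
Slc30a1, chr1:191906531-191906766, plus strand: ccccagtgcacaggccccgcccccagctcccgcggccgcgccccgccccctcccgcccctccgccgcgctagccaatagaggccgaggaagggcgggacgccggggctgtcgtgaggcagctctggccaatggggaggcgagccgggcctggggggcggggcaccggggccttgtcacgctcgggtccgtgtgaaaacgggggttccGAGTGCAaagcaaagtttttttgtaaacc
The core marked for Slc30a1 lies on the minus strand, so it is printed as its reverse complement. A match is a description and not a binding site.

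Each library held 12954342 to 22075432 counts. Replicates spread most in the group given anti-ITGA5 on uncoated dishes, where the chi-square between 2 libraries reached 10.4 to 23.0 per gene. In the other groups it was 2.65 to 7.45, and pure counting error would give about 1. Replicate 2 of that group had the smallest total. The 8 macrophage markers reported were abundant, with a summed level of 6129 to 9822 FPKM, while the 10 erythroid markers summed to at most 0.887 FPKM and the 6 lymphocyte markers to at most 0.481 FPKM in any library. The neutrophil markers summed to 2.41 to 4.23 FPKM in IgG and 2.69 to 3.70 FPKM in anti-ITGA5 without fibronectin, and to 3.04 to 4.53 and 1.86 to 3.00 FPKM with it, where the groups did not overlap and Mpo, at 0.333 FPKM or less, was called lower (log2 fold change -0.94, adjusted p = 0.0499). Fibroblast and dendritic cell markers summed to at most 0.409 and 0.416 FPKM. Itga5 and Itgb1, the chains of the neutralized integrin, were not called in either antibody comparison, and an antibody against the protein need not change them. Levels below are in FPKM, the authors' counts scaled by gene length and library size, and log2 fold changes come from the counts.

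Ferritin stood far above the other members in level. Over the 12 libraries the mean was 17309 FPKM for Fth1 and 6018 FPKM for Ftl1, 134.1 FPKM for Mt1, 104.9 FPKM for Slc11a1, 53.4 FPKM for Tfrc and 50.2 FPKM for Slc40a1. Slc11a2, Ireb2 and Slc30a1 followed with means of 9.53, 9.52 and 7.55 FPKM, and Mt2 was lowest at 0.384 FPKM. Fth1 had the highest count of any gene in 9 of 12 libraries and the highest FPKM in 11 of 12. Its FPKM divides by the 866 bases that the deposited tables give as its length, while all annotated Fth1 exons of GENCODE M21 cover 3469 bases in a model that reaches past the deposited gene span, so its level against other genes rests on that choice. The length given for Mt1, 1246 bases, equals its whole gene span, so the level of Mt1 against other genes rests on that length too. Of the 10 members, 9 had at least 10 counts in every library and entered every test. The exception was Mt2.

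**Figure D1:**
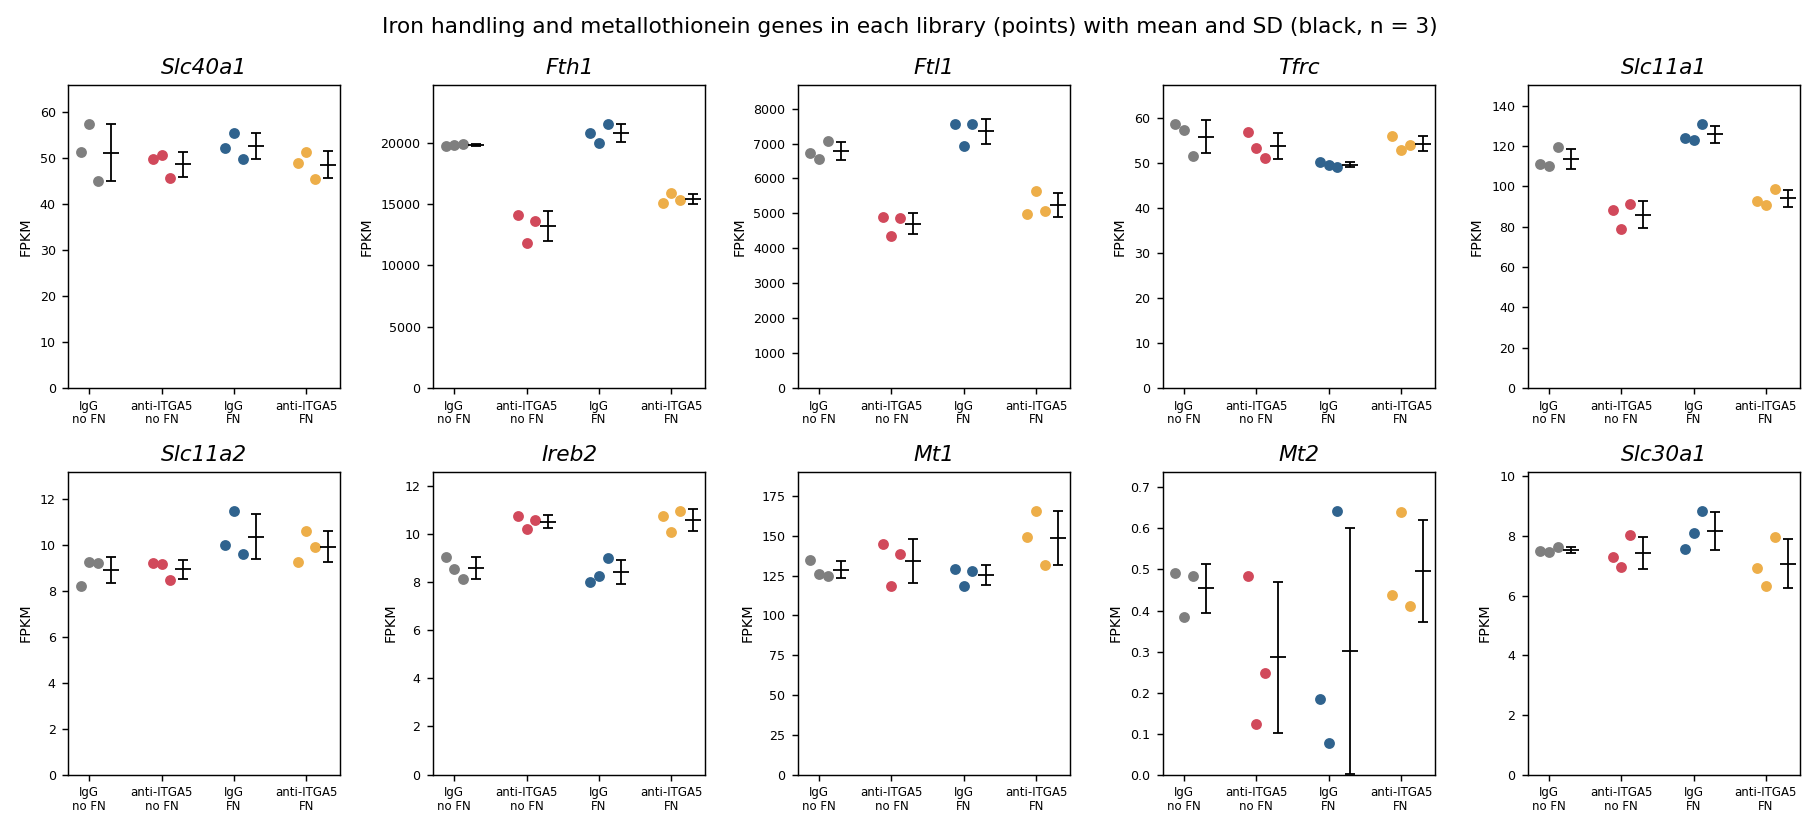
Level of each of the 10 genes in FPKM (vertical axes, linear, from 0) in the 3 libraries of each group (coloured points), with the mean and SD in black. FN stands for fibronectin. The anti-ITGA5 libraries of Fth1, Ftl1 and Slc11a1 lie below the IgG libraries and those of Ireb2 lie above them on either dish, while Slc40a1 and Slc11a2 overlap.

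Fewer ferritin transcripts were measured upon ITGA5 neutralization, on uncoated and on fibronectin-coated dishes, and Slc11a1 was lower as well. Ireb2 was higher in both. Slc40a1 was not called in either, though 1 of 17 alternative runs called it lower with fibronectin. Without fibronectin, 4 of the 9 members tested were called at an adjusted p of 0.05 or less by edgeR, 3 lower (9.79% of all genes tested) and 1 higher (11.0% of all genes tested), against 20.8% of 12924 genes called in either direction. With fibronectin, 6 of the 9 were called, 3 lower (13.2% of all genes tested) and 3 higher (14.4% of all genes tested), against 27.6% of 12916 genes. Fth1, Ftl1, Slc11a1 and Ireb2 were called in both comparisons, which share no library, and each had the same sign in both, as had 16.4% of the 12681 genes tested in both. The median log2 fold change of the 9 members was -0.05 without and -0.11 with fibronectin, beside medians of 0.0090 and -0.0038 over all genes tested. In FPKM, 4 of the 10 members did not overlap between IgG and anti-ITGA5 without fibronectin (38.2% of all genes tested) and 6 of the 10 did not with it (42.4% of all genes tested), the same genes as those called. A lower level in RNA from a whole culture can mean less RNA per cell or fewer cells that hold it, and these cannot be told apart.

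**Figure D2:**
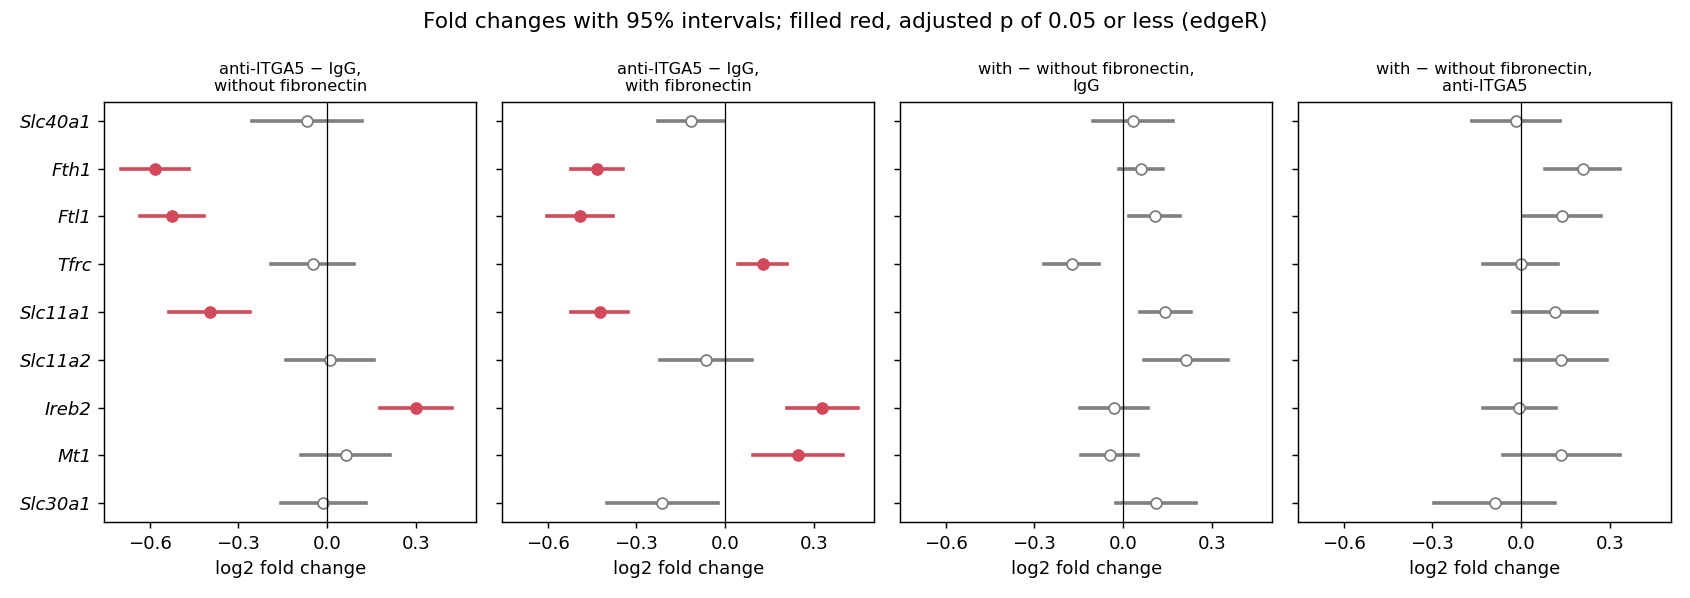
Log2 fold change (horizontal axis) of the 9 members tested in the 4 pairwise comparisons, with 95% intervals as lines. Filled red points were called by edgeR at an adjusted p of 0.05 or less. Fth1, Ftl1 and Slc11a1 lie left of 0 and Ireb2 right of 0 in both antibody panels, and neither fibronectin panel holds a called gene.

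Fth1 (chr19:9982703-9985092, plus strand) encodes the ferritin heavy chain, the ferroxidase subunit of the iron store. In IgG without fibronectin it stood at 19723, 19854 and 19917 FPKM, and in anti-ITGA5 without fibronectin at 14113, 11868 and 13660 FPKM. With fibronectin it stood at 20809, 20019 and 21505 FPKM in IgG and at 15060, 15880 and 15306 FPKM in anti-ITGA5. Every anti-ITGA5 library lay below every IgG library, and the lowest of all was replicate 2 of anti-ITGA5 without fibronectin. Fth1 fell by 33.2% without fibronectin (log2 fold change -0.58, SE 0.05, adjusted p = 4.26e-05) and fell by 25.9% with it (log2 fold change -0.43, SE 0.04, adjusted p = 1.14e-05). The group means rose from anti-ITGA5 without fibronectin through anti-ITGA5 with it to IgG without and then IgG with fibronectin, and no 2 neighbours in this order overlapped. The exact 2-sided permutation test of 3 against 3 FPKM values gave p = 0.10 in each antibody comparison, the smallest it can give.

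Ftl1 (chr7:45457944-45459884, minus strand), the light chain that helps the shell take up and mineralise iron, ran in parallel. It stood at 6740, 6557 and 7072 FPKM in IgG and at 4896, 4356 and 4865 FPKM in anti-ITGA5 without fibronectin. On fibronectin the values were 7546, 6942 and 7545 FPKM in IgG and 4986, 5626 and 5080 FPKM in anti-ITGA5. Again no anti-ITGA5 library reached any IgG library. Ftl1 fell by 30.5% without fibronectin (log2 fold change -0.52, SE 0.05, adjusted p = 5.30e-05) and fell by 28.9% with it (log2 fold change -0.49, SE 0.05, adjusted p = 2.63e-05). Fth1 and Ftl1 together took 2.62% ± 0.03 of all counts in IgG and 1.83% ± 0.10 in anti-ITGA5 without fibronectin, and 2.73% ± 0.10 and 2.05% ± 0.09 with it (SD, n = 3).

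The ratio of Fth1 to Ftl1 FPKM was 2.92 ± 0.11 in IgG and 2.80 ± 0.08 in anti-ITGA5 without fibronectin, and 2.83 ± 0.07 and 2.95 ± 0.11 with fibronectin (SD, n = 3). Between IgG and anti-ITGA5 the mean log2 ratio differed by -0.06 without and 0.06 with fibronectin, and the group ranges overlapped. A permutation test of 3 against 3 cannot pass 0.05, so no test is read here. The ratio rests on the deposited Fth1 length, and with the exonic bases of GENCODE M21 as lengths its group means were 0.700 to 0.737, below 1, with the same differences between groups on the log2 scale. Macrophage markers moved with the antibody as well. Of the 8, Cd68, Itgam, Mertk and Lyz2 were called lower and Cd14 higher in each antibody comparison. Of all genes tested, 20.8% without and 27.6% with fibronectin were called in either direction. Csf1r, Adgre1 and Fcgr1 were not called in either, with log2 fold changes of -0.12 and -0.02 for Csf1r and of 0.02 and 0.10 for Adgre1 and of -0.30 (adjusted p = 0.0738) and -0.14 (adjusted p = 0.546) for Fcgr1. The summed level of the 8 was 8977 to 9822 FPKM in IgG and 6129 to 7517 FPKM in anti-ITGA5 without fibronectin, and 9558 to 9759 and 7337 to 7506 FPKM with it. Most of that sum was Lyz2, and without it the other 7 summed to 1828 to 1874 FPKM in IgG and 1570 to 1737 FPKM in anti-ITGA5 without fibronectin, and to 1850 to 1884 and 1734 to 1756 FPKM with it. The part of these markers in the results for ferritin and Slc11a1 was not tested. Near-identical copies of the ferritin genes lie elsewhere in the genome, and reads on them could have been split. Ftl1-ps1, the copy with the most counts, had 606 to 1726 counts per library against 80393 to 202525 for Ftl1, and adding the copies left the Ftl1 log2 fold changes at -0.52 and -0.49. That sum holds only reads counted on a copy, so it cannot show whether reads that match several places were lost. Of the exonic bases of Ftl1, 34.6% also lie in exons of Gm10252 on the other strand or of Gm22133, which had at most 40 counts, and the strand used in counting is not given in the sources used here. With limma on log2(FPKM + 1) and no minimum level, the ferritin fold changes kept their size but not their call, with adjusted p of 0.964 and 0.756 for Fth1 and 0.858 and 0.346 for Ftl1. On log2(FPKM + 0.1) the adjusted p of Fth1 without fibronectin was 0.0544, and the cause was not tested.

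**Figure D3:**
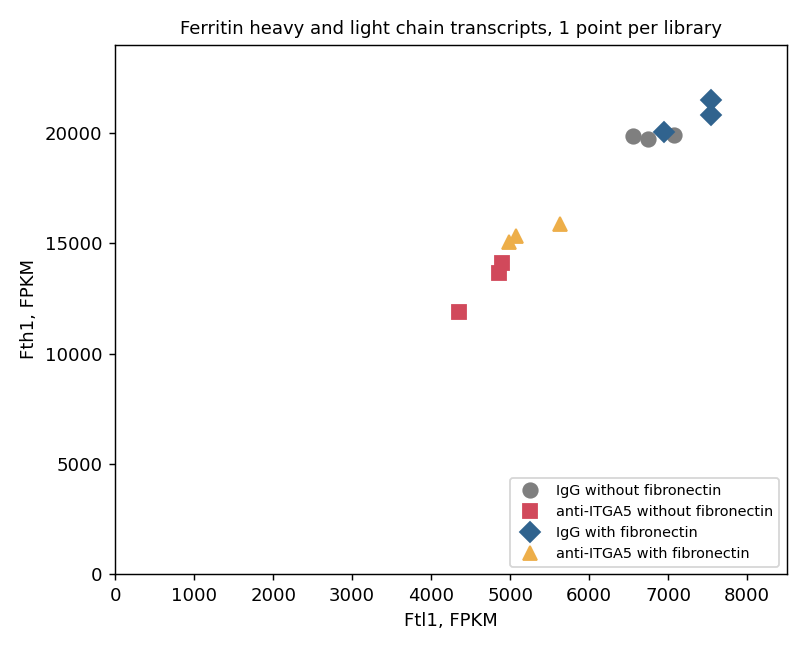
Fth1 against Ftl1 in FPKM (linear axes from 0), 1 point per library, marked by group. The 6 anti-ITGA5 libraries lie at 4356 to 5626 FPKM of Ftl1 and the 6 IgG libraries at 6557 to 7546 FPKM, with a like gap along the Fth1 axis.

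Slc11a1 (chr1:74375195-74386062, plus strand) encodes NRAMP1, which pumps iron and manganese out of the phagosomes of macrophages. Its level was 111.2, 110.4 and 119.6 FPKM in IgG and 88.1, 78.7 and 91.3 FPKM in anti-ITGA5 without fibronectin. On fibronectin it was 124.0, 123.2 and 130.8 FPKM in IgG and 92.7, 90.6 and 98.9 FPKM in anti-ITGA5. The IgG and anti-ITGA5 libraries did not overlap on either dish. Slc11a1 fell by 24.1% without fibronectin (log2 fold change -0.40, SE 0.06, adjusted p = 0.00131) and fell by 25.4% with it (log2 fold change -0.42, SE 0.04, adjusted p = 2.64e-05), and each alternative run gave the same call. These are transcript levels, and the transport of metal by NRAMP1 in these cells was not measured.

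Slc11a2 (chr15:100387898-100425072, minus strand), its relative DMT1, carries iron across the membrane of endosomes. It ranged from 8.23 to 9.25 FPKM in IgG and from 8.47 to 9.21 FPKM in anti-ITGA5 without fibronectin, and from 9.59 to 11.5 and from 9.26 to 10.6 FPKM with fibronectin. These ranges overlapped and the gene was not called, with log2 fold changes of 0.01 (95% interval -0.14 to 0.16) and -0.07 (95% interval -0.22 to 0.09). The ratio of Slc11a1 to Slc11a2 FPKM was 12.8 ± 0.80 in IgG and 9.64 ± 1.09 in anti-ITGA5 without fibronectin, and 12.3 ± 1.45 and 9.51 ± 0.84 with fibronectin (SD, n = 3).

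Tfrc (chr16:32608920-32632794, plus strand) encodes the transferrin receptor. It stood at 58.5, 57.2 and 51.6 FPKM in IgG and at 56.9, 53.2 and 51.1 FPKM in anti-ITGA5 without fibronectin. With fibronectin it stood at 50.3, 49.5 and 49.1 FPKM in IgG and at 56.0, 52.9 and 53.9 FPKM in anti-ITGA5. The groups overlapped without fibronectin and were apart with it, where the IgG libraries were the lowest of the 4 groups. The log2 fold change was -0.05 without fibronectin (95% interval -0.19 to 0.09, adjusted p = 0.638) and 0.13 with it (SE 0.04, adjusted p = 0.0259). The second call was lost when replicate 1, 2 or 3 of IgG or replicate 1 of anti-ITGA5 was left out (adjusted p of 0.068, 0.0857, 0.107 and 0.119), in a fit of all 12 libraries (adjusted p = 0.0966), with limma on log2(FPKM + 1) and no minimum level (adjusted p = 0.0511) and at a limit of 0.01. Proliferation markers moved with the antibody too. Of 18 such genes, 13 were called higher in each antibody comparison, beside 11.0% and 14.4% of all genes tested. Mcm2, Mcm3, Mcm5, Mcm6 and Pcna were not called in either. The summed level of the 18 was 614 to 709 FPKM in IgG and 900 to 974 FPKM in anti-ITGA5 without fibronectin. With fibronectin it was 621 to 729 and 859 to 1050 FPKM. The part of these markers in the Tfrc result was not tested.

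Slc40a1 (chr1:45908068-45926523, minus strand) encodes ferroportin, the iron exporter. Its level was 51.2, 57.3 and 44.9 FPKM in IgG and 49.7, 50.6 and 45.6 FPKM in anti-ITGA5 without fibronectin. On fibronectin it was 52.2, 55.5 and 49.9 FPKM in IgG and 48.9, 51.3 and 45.5 FPKM in anti-ITGA5. Neighbours in the order of the 4 group means all overlapped. The log2 fold change was -0.07 without fibronectin (95% interval -0.25 to 0.12, adjusted p = 0.629) and -0.11 with it (95% interval -0.23 to -0.0032, adjusted p = 0.119). A fall as large as that of Fth1 lay outside both intervals. A fit with replicate number as a block called Slc40a1 lower on fibronectin, though the numbers were not shown to pair the samples. The transcripts whose log2 CPM ran most like those of Slc40a1 over the 12 libraries, among 13455 genes, were Msmo1 (Pearson r = 0.898), Sc5d (r = 0.892) and Gm17024 (r = 0.889). Msmo1 and Sc5d encode enzymes of sterol synthesis, and the points share library, group and depth.

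Ireb2 (chr9:54863789-54912530, plus strand) encodes iron regulatory protein 2, which binds the hairpins printed above. It stood at 9.02, 8.56 and 8.13 FPKM in IgG and at 10.8, 10.2 and 10.6 FPKM in anti-ITGA5 without fibronectin. With fibronectin it stood at 8.01, 8.26 and 8.99 FPKM in IgG and at 10.8, 10.1 and 10.9 FPKM in anti-ITGA5. Every anti-ITGA5 library lay above every IgG library, and the ranges of the 2 kinds of dish overlapped within each antibody. Ireb2 rose by 23.2% without fibronectin (log2 fold change 0.30, SE 0.06, adjusted p = 0.00356) and by 25.6% with it (log2 fold change 0.33, SE 0.06, adjusted p = 0.000824), and each alternative run gave the same call. Aco1, which encodes iron regulatory protein 1, was not called, with log2 fold changes of -0.09 (adjusted p = 0.421) and -0.11 (adjusted p = 0.145).

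Mt1 (chr8:94179082-94180327, plus strand), the metallothionein with nearly all of the counts measured on its family, stood at 134.9, 126.2 and 125.0 FPKM in IgG and at 144.5, 118.3 and 138.8 FPKM in anti-ITGA5 without fibronectin. With fibronectin it stood at 129.4, 118.2 and 128.1 FPKM in IgG and at 149.0, 165.4 and 131.8 FPKM in anti-ITGA5. The groups overlapped on uncoated dishes and were apart on fibronectin. The log2 fold change was 0.06 without fibronectin (95% interval -0.09 to 0.21, adjusted p = 0.573) and 0.25 with it (SE 0.07, adjusted p = 0.0194). Without replicate 2 of anti-ITGA5 the value on uncoated dishes was 0.14 (adjusted p = 0.0345). On fibronectin the call was lost without replicate 2 of IgG (adjusted p = 0.0815) or without replicate 1 or 2 of anti-ITGA5 (adjusted p of 0.0628 and 0.0723), and with limma on FPKM (adjusted p of 0.0781 to 0.194). Over the 12 libraries its log2 CPM ran most like those of Ywhaq (r = 0.908), Rnf220 (r = 0.907) and Cdc42se2 (r = 0.901), as a description with points that share library, group and depth.

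Mt2 (chr8:94172664-94173568, plus strand), the neighbour that lies 5513 bases from Mt1, had 5, 4 and 5 counts in IgG and 5, 1 and 3 counts in anti-ITGA5 without fibronectin, and 2, 1 and 7 and 5, 7 and 4 counts with fibronectin. These counts are too few to rank the groups, and the gene was not tested by edgeR. The exact permutation test of its FPKM gave p = 0.20 and p = 0.40 in the antibody comparisons. Of its 588 exonic bases, 432 (73.5%) also lie in the exon of Gm45774 on the other strand, which had at most 6 counts. Reads that fall on both genes may have been given to neither, so the low Mt2 values cannot be read as its level in the cells. The other metallothioneins, Mt3 and Mt4, had at most 8 and 1 counts in any library.

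Slc30a1 (chr1:191906767-191913247, plus strand), the zinc exporter ZnT1, was not called. It stood at 7.52, 7.45 and 7.64 FPKM in IgG and at 7.30, 6.95 and 8.02 FPKM in anti-ITGA5 without fibronectin. With fibronectin it stood at 7.56, 8.11 and 8.83 FPKM in IgG and at 6.93, 6.33 and 7.96 FPKM in anti-ITGA5. The groups overlapped on either dish. The log2 fold change was -0.01 without fibronectin (adjusted p = 0.915) and -0.21 with it (95% interval -0.40 to -0.03, adjusted p = 0.0862). On fibronectin it was called lower in 3 of 17 alternative runs. Without replicate 3 of anti-ITGA5 with fibronectin the value was -0.30 with an adjusted p of 0.00671. With replicate number as a block the gene was called as well, though the numbers were not shown to pair the samples. Of its exonic bases, 8.92% also lie in exons of the antisense gene 1700034H15Rik, which had at most 18 counts.

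Fibronectin compared with no coating in IgG gave 58 called genes of 12925 tested (0.449%), and none of the 9 members was among them by edgeR, although 4 had an unadjusted p under 0.05, as had 9.79% of all genes tested. DESeq2 called 2 members, against 128 (4.41%) of the 2902 genes to which it gave an adjusted p. With every gene of at least 1 count in the fit, edgeR called 241 of 25616 genes (0.941%) and all 4 of these members (adjusted p of 0.00379 for Tfrc, 0.00532 for Ftl1, 0.0157 for Slc11a1 and 0.0201 for Slc11a2). The 4 were Tfrc with a log2 fold change of -0.17 (adjusted p = 0.105), Ftl1 with 0.11 (adjusted p = 0.37), Slc11a1 with 0.14 (adjusted p = 0.176) and Slc11a2 with 0.21 (adjusted p = 0.233). A fit with replicate number as a block called these 4 too, though the numbers were not shown to pair the samples. In the FPKM of IgG cells, 4 of the 10 members did not overlap between dishes, against 15.4% of all genes tested: Tfrc was lower on fibronectin, and Fth1, Slc11a1 and Slc11a2 were higher. Without replicate 3 of IgG without fibronectin, the adjusted p of Tfrc was 0.0156. In anti-ITGA5 cells 3 of the 10 members did not overlap between dishes (9.74% of all genes tested), Fth1, Ftl1 and Slc11a2, all higher on fibronectin. There edgeR called 0 of 12863 genes (0.0%), with 461 (3.58%) at an unadjusted p under 0.05 and 5 called by DESeq2, and the 2 members at an unadjusted p under 0.05 were Fth1 with 0.21 (95% interval 0.08 to 0.33) and Ftl1 with 0.14 (95% interval 0.01 to 0.27), both at an adjusted p of 0.979. These comparisons share libraries with the antibody comparisons.

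Whether the antibody acted differently on the 2 kinds of dish was tested as an interaction over all 12 libraries. It called 3 of 13455 genes (0.0223%) by edgeR and 4 by DESeq2, with 386 (2.87%) at an unadjusted p under 0.05, and no member was called by either tool. The difference between the antibody effects with and without fibronectin was 0.15 for Fth1 (95% interval 0.0030 to 0.29), 0.17 for Tfrc (95% interval 0.02 to 0.33), 0.18 for Mt1 (95% interval -0.05 to 0.41) and -0.20 for Slc30a1 (95% interval -0.45 to 0.05), on the log2 scale and each at an adjusted p of 1.00. So the calls of Tfrc and Mt1 on fibronectin were not shown to differ from their values on uncoated dishes.

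Beyond the members, 83 genes of iron, heme, zinc and copper pathways were examined, of which 65 were tested in each antibody comparison. On uncoated dishes 11 were called lower and 3 higher, and on fibronectin 14 were lower and 7 were higher, beside the shares of all genes given above. The coating in IgG called none of the 65 by edgeR. Of these genes, 12 were called in both antibody comparisons with the same sign, 9 lower (7.23% of all genes tested in both) and 3 higher (9.14%). Counted in either direction, these numbers lie near the shares over all genes (20.8% and 27.6% in each comparison and 16.4% in both), so the 12 genes are described below one by one and not as a shift of the pathways. By list, the median log2 fold change ran from -0.17 for iron sensing and regulation to 0.00071 for zinc and copper without fibronectin, and from -0.14 for iron sensing and regulation to 0.04 for mitochondrial iron with it.

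**Figure D4:**
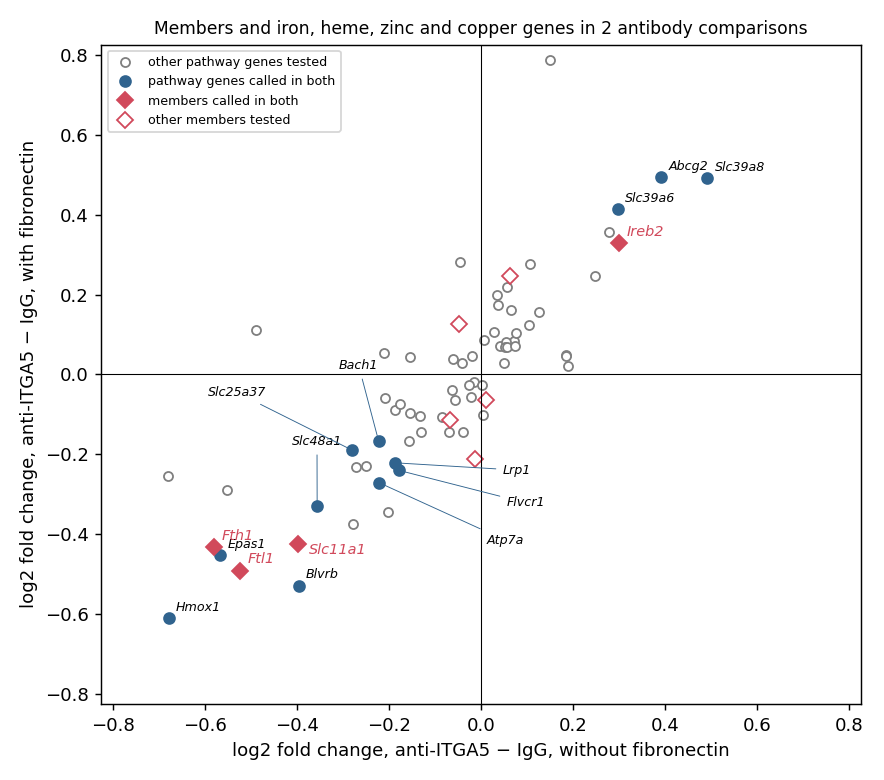
Log2 fold change upon ITGA5 neutralization without fibronectin (horizontal axis) and with it (vertical axis), for 65 pathway genes (circles) and 9 members (diamonds), 1 symbol per gene. Filled symbols were called by edgeR in both comparisons. Hmox1, Blvrb and Epas1 lie at the lower left with the ferritin genes and Slc11a1, and Slc39a8, Abcg2 and Slc39a6 at the upper right near Ireb2.

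The largest mean change among the 12 was in heme breakdown. Hmox1, the heme oxygenase that frees iron from heme, averaged 1710.3 ± 270.0 FPKM in IgG and 1065 ± 199 FPKM in anti-ITGA5 without fibronectin, and 1819 ± 260.0 and 1194 ± 148 FPKM with it (SD, n = 3). Its log2 fold change was -0.68 (adjusted p = 0.00479) and -0.61 (adjusted p = 0.000602). Blvrb, which encodes biliverdin reductase B, fell by 0.40 and 0.53 on the log2 scale, and Slc48a1, which brings heme out of lysosomes, by 0.36 and 0.33. Blvra, which encodes biliverdin reductase A, was not called (log2 fold changes of -0.02 and 0.05), nor was the second heme oxygenase gene Hmox2 (-0.06 and -0.07). Of the 12 heme genes tested, 2 were called lower without and 3 with fibronectin, beside 9.79% and 13.2% of all genes tested, and none was called higher. Alas1, the first enzyme of heme synthesis, was called lower on fibronectin (log2 fold change -0.15, adjusted p = 0.0296) and not on uncoated dishes, a difference that was not called in the interaction test.

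Among regulators, Epas1, which encodes the oxygen-responsive factor HIF-2α, fell by 0.57 and 0.45, and Bach1, the repressor of Hmox1 that heme inactivates, by 0.22 and 0.17. Nfe2l2, which encodes the activator Nrf2, was called lower on fibronectin (log2 fold change -0.17, adjusted p = 0.00866), with -0.16 (adjusted p = 0.0575) on uncoated dishes. Hfe was called higher on fibronectin (log2 fold change 0.28, adjusted p = 0.0134), with 0.11 (adjusted p = 0.368) on uncoated dishes. That difference was not called in the interaction test. Of the 6 regulators tested, 2 were called lower on uncoated dishes, and 3 were lower and 1 was higher on fibronectin, beside 20.8% and 27.6% of all genes called in either direction.

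Uptake and export genes went both ways. Slc39a8 (ZIP8), an importer of zinc, iron and manganese, rose by a log2 fold change of 0.49 in each comparison, and Lrp1, a receptor that takes up heme bound to hemopexin, fell by 0.19 and 0.22. The heme exporters split, with Flvcr1 at -0.18 and -0.24 and Abcg2 at 0.39 and 0.49. Slc25a37, or mitoferrin 1, which carries iron into mitochondria, fell by 0.28 and 0.19. Among the 21 zinc and copper genes tested, 3 were lower and 1 was higher on uncoated dishes, and 3 were lower and 4 were higher on fibronectin, near the 20.8% and 27.6% of all genes. The zinc importer Slc39a6 (ZIP6) rose by a log2 fold change of 0.30 and 0.41, and the copper pump Atp7a fell by 0.22 and 0.27.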

How the data were processed

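RNA-seq of oligo(dT)-enriched RNA was analysed in 12 libraries, 3 in each of 4 groups taken from the labels. The authors aligned paired-end reads to GRCm38.p6 (mm10) with TopHat2 2.0.9 and counted them on genes with HTSeq 0.6.1, and their notes also name Cufflinks 2.1.1. The authors deposited raw counts per gene. A second deposited table gives FPKM, a count divided by gene length and by 1 scaled total per library. The strand setting and Ensembl release are not given in the sources used here. The deposited columns all belong to these 12 libraries, and no column was left out.

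Each pairwise comparison used its own 6 libraries and the interaction used all 12. Counts were tested with edgeR 4.0.16 in R 4.3.3: filterByExpr (minimum count 10, minimum total 15), TMM scaling, the quasi-likelihood test and Benjamini-Hochberg adjustment over all genes tested, with a call at an adjusted p of 0.05 or less. FPKM gave levels, as mean and SD, and 2-sided exact permutation tests, whose smallest p is 0.10. The fit was tested on simulated data. Depth was 12954342 to 22075432 counts per library, and each member tested had at least 10 counts in every library.

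All members were described. From the pathway lists, up to 12 genes called in both antibody comparisons with the same sign were described by size of change, with the 3 genes nearest in pattern to Slc40a1 and to Mt1. Aco1, Alas1, Nfe2l2, Hfe, Mt3, Mt4 and Ftl1-ps1 were added after their values were seen. The members and lists were chosen with earlier results of these data known. Sequences came from GENCODE M21 transcripts and RefSeq promoter windows. The protein sequences were not used here, and 1 macrophage marker is not reported here.

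Alternatives were DESeq2 1.42.0 for the test, scaling by total counts or by the size factors of DESeq2, a looser filter (at least 1 count) and a stricter one (at least 10 counts in every library), a fit of all 12 libraries, a replicate block, limma 3.58.1 on log2(FPKM + 1), with a mean of at least 0.5 FPKM or no minimum, and on log2(FPKM + 0.1), a limit of 0.01 on the adjusted p, and each library left out in turn. Chosen after seeing the data, ferritin counts were summed with those of pseudogene copies.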

Additional observations from a re-analysis of the deposited data

How the results depend on the processing

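Of 590 recomputed log2 fold changes, 542 kept direction and side of the threshold, 19 lost their call, 16 gained one and 13 changed sign, none of the last for a called value. No scaling moved the median of all genes by over 0.1 on the log2 scale. Signs changed for Slc30a1 without fibronectin with total counts (0.0266) and with 1 library left out (-0.0742 to 0.0249), for Slc11a2 without fibronectin with genes of at least 1 count (-0.0025) or 1 library left out (-0.0442 to 0.0489) and with fibronectin (-0.123 to 0.0106), for Slc40a1 without fibronectin (-0.152 to 0.0222), and on fibronectin in IgG for Ireb2 (-0.0805 to 0.0072) and Slc40a1 (-0.0495 to 0.123). Limma on log2(FPKM + 1) without a filter called 1 member lower in each antibody comparison and 1 higher with fibronectin. A limit of 0.01 left 1 member higher with fibronectin. Fibronectin in IgG gave 1 member lower and 1 higher with DESeq2, and 1 lower and 3 higher with genes of at least 1 count. With 1 library left out, 3 members were lower and 1 to 2 higher without fibronectin, 3 to 4 lower and 1 to 3 higher with it, and 0 to 1 lower in fibronectin in IgG. The shares of all genes called in the same runs are not given here, apart from those above for fibronectin in IgG. No result is read from these member counts. All genes called ranged from 1220 to 3834 without fibronectin, from 1871 to 4538 with it, from 5 to 416 in fibronectin in IgG, from 0 to 327 in fibronectin in anti-ITGA5 and from 1 to 65 in the interaction.

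Replicate numbers were not shown to pair the samples: same-numbered deviations correlated at -0.02 to 0.15, although in 3 of the 4 comparisons 6 of 6 libraries correlated best with their own number, a hint from the data only. The replicate block gave 5 members lower with fibronectin, adding Slc40a1 (adjusted p = 0.0146) and Slc30a1 (adjusted p = 0.00894), and in fibronectin in IgG 1 lower, Tfrc (adjusted p = 0.000702), and 3 higher, Ftl1, Slc11a1 and Slc11a2 (adjusted p of 0.0121, 0.0025 and 0.00964). The cause of these changes was not tested, and the share of all genes called in the block fits is not given here. Low counts limit Mt2 alone among the members.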
